A study of Mus musculus with 9 samples.

Results

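Endothelial cells line the blood vessels of the heart and make up its dense capillary bed. The 35 genes described here mark these cells. They were taken by symbol from a list of members, and all 35 were found, each on 1 line, among the 43154 genes listed for every heart. By role they comprise 24 pan-endothelial genes, which most endothelial cells use, 5 arterial genes, 4 capillary genes and 2 genes of large vessels and lymphatics. The pan-endothelial genes comprise 6 of cell junctions and the cell surface, 8 receptors, 5 transcription factors and 5 secreted or signalling genes.

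The data are poly(A) RNA-seq libraries of 9 mouse hearts (C57BL/6), 1 library per heart, so each is a separate animal. The transgenic mice (MHC-CnATg) carried calcineurin A, a phosphatase that drives growth of heart muscle, behind the myosin heavy chain promoter, which is active in cardiomyocytes and not in endothelium. JIB-04, an inhibitor of Jumonji histone demethylases, was given to transgenic mice (2 hearts) in doses of 50 mg/kg that began at 4 weeks of age and were repeated 3 times weekly. The other transgenic mice received vehicle (3 hearts), as did the wild type mice (4 hearts). JIB-04 in wild type mice was not analysed here. Hearts were labelled as collected at day 125 (JIB-04 heart 1, transgenic vehicle heart 1, wild type hearts 1 and 2) or day 158 (JIB-04 heart 2, transgenic vehicle hearts 2 and 3, wild type hearts 3 and 4). Levels are FPKM, which divide a gene's fragments by its length and the library's total, so they can be compared between genes. Differences are those of log2(FPKM + 1); for genes near 1 FPKM they understate the fold. A gene was called when its adjusted p was at most 0.05 in limma, a linear model fitted over all 13487 genes that reached 1 FPKM in at least 2 hearts. All 35 endothelial genes passed that filter.

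Endothelial identity rests on a small set of transcription factors of the ETS family (Erg, Fli1, Ets1) and the SOXF group (Sox7, Sox17, Sox18), which bind the regulatory regions of many genes described here. Vascular endothelial growth factors act through Flt1, Kdr and Flt4 with the co-receptor Nrp1, and angiopoietins through Tek, which pairs with Tie1. Junction proteins such as Cdh5, Cldn5, Esam and Pecam1 hold the cells together and set how leaky the vessel wall is. In the heart muscle, endothelium passes oxygen and fatty acids to cardiomyocytes, which in turn secrete growth factors for the vessels.

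Promoters in the RefSeq table for GRCm38.p6 were matched for 16 of the 35 genes, and the 250 bases before the start given in that table were read on the gene's strand. Of the 16 windows, 8 hold exon bases of their own gene in GENCODE release M21 (212 in Tie1 and all 250 in Flt4), and the Egfl7 window lies downstream of the annotated start of its gene. Nrp1, Erg and Tek, the 3 called genes with the smallest p whose window holds no exon base of the gene, are shown because they fell in the transgenic hearts described below. The windows of Flt1, which also fell, and of Eng, which did not pass the test, were added after the values were seen. Capitals mark 6-letter motifs on either strand: the ETS cores AGGAAG and, with C as the first letter, CGGAAG, the SOX motif AACAAT and the GATA motif AGATAA. No 2 motifs overlap in the windows shown.
Nrp1: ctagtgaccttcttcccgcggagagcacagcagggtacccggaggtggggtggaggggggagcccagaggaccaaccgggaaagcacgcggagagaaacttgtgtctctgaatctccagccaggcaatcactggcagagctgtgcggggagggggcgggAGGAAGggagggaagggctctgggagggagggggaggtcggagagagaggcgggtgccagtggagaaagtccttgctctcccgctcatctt
Erg: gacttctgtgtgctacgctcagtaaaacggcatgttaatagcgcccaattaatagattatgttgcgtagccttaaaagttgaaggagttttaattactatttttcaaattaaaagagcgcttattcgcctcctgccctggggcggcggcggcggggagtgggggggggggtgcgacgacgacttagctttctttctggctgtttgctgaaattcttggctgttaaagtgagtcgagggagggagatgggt
Tek: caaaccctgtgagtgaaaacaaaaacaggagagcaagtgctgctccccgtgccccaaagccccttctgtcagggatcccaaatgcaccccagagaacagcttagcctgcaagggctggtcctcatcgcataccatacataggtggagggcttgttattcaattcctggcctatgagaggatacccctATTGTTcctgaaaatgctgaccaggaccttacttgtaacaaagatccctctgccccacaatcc
Flt1: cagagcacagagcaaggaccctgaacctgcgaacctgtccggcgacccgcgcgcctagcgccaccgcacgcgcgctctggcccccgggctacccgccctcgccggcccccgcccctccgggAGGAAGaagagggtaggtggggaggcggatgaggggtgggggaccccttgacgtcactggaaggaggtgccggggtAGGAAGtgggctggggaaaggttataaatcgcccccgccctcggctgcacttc
Eng: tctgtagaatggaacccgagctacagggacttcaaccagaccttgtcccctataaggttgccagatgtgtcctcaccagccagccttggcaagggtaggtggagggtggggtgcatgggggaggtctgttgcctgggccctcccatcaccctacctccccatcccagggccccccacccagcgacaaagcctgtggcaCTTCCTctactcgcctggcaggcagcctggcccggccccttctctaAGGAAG
The windows lie at chr8:128358823-128359072 (Nrp1, plus strand), chr16:95586594-95586843 (Erg, minus), chr4:94739039-94739288 (Tek, plus), chr5:147726012-147726261 (Flt1, minus) and chr2:32646345-32646594 (Eng, plus). On either strand, AGGAAG occurred in 9 of the 16 windows (56.2%), against 29.2% of 27025 promoters of the same length. It was in 6 of the 10 windows of genes that fell and in 3 of the 6 windows of genes that were not called. CGGAAG was in 1 of 16 windows (13.8% of all promoters), AACAAT in 2 (9.65%) and AGATAA in 0 (10.3%). These are matches of letters within short windows, and the Erg window holds none of them.

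All 35 genes are protein-coding and lie on 15 chromosomes. The libraries did not keep strand, so reads of overlapping genes cannot be told apart. Exons of 8 of the 35 genes share bases with another gene in GENCODE release M21. The share was above 20% for Rasip1 (42.9%, with A030001D20Rik, Gm45437 and Izumo1) and Nos3 (32.3%, with Atg9b and Gm15587), so their values are uncertain. It was 16.8% for Sox17 and 11.2% for Egfl7, whose transcript also hosts Mir126a.

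Transgenic vehicle heart 3 stood apart from the other hearts of its group. For Ppp3ca, the gene of the calcineurin A subunit, JIB-04 hearts had 1536 and 1434 FPKM, transgenic vehicle hearts 1 to 3 had 1762, 1706 and 199 FPKM, and wild type hearts had 22.9 to 24.8 FPKM. For Rcan1, a target of calcineurin signalling, JIB-04 hearts had 140 and 169 FPKM, transgenic vehicle hearts had 97.7, 140 and 72.8 FPKM, and wild type hearts had 25.6 to 29.4 FPKM. Heart 3 had the highest level among the 3 transgenic vehicle hearts for 24 of the 35 endothelial genes and the lowest for 5. Among all tested genes it was the highest in 36.7% and the lowest in 43.1%. It reached or passed the lowest wild type heart in 15 of the 35 genes, hearts 1 and 2 in 5 and 6. Depth relative to wild type heart 1 was estimated from the steps between low values. It was 1.15, 1.16 and 1.23 in wild type hearts 2 to 4. In transgenic vehicle hearts 1 to 3 it was 1.25, 1.47 and 1.28, and in JIB-04 hearts 1.49 and 1.36. Every transgenic library was thus estimated to be deeper than every wild type library. The part of depth in the comparisons with wild type was not tested, and numbers of reads were not given in the sources used here.

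In wild type hearts, Egfl7 had the highest level of the 35 genes, at 138 ± 7.96 FPKM (SD, n = 4). Eng, Pecam1 and Cdh5 followed at 52.1 ± 1.72, 50.6 ± 3.57 and 50.6 ± 1.13 FPKM, and did not differ from each other beyond their spread. The lowest were Plvap at 3.90 ± 0.641 and Flt4 at 3.605 ± 0.608 FPKM, which overlapped. Of the arterial genes Nrp1 was the highest at 39.4 ± 2.95 FPKM, and of the capillary genes Kdr at 29.6 ± 5.08 FPKM. The summed level of the 35 genes was 66.6% and 58.8% of the wild type mean in the JIB-04 hearts and 67.0%, 69.1% and 89.5% in transgenic vehicle hearts 1 to 3. The wild type hearts lay between 95.5% and 104% of their mean.

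**Figure D1:**
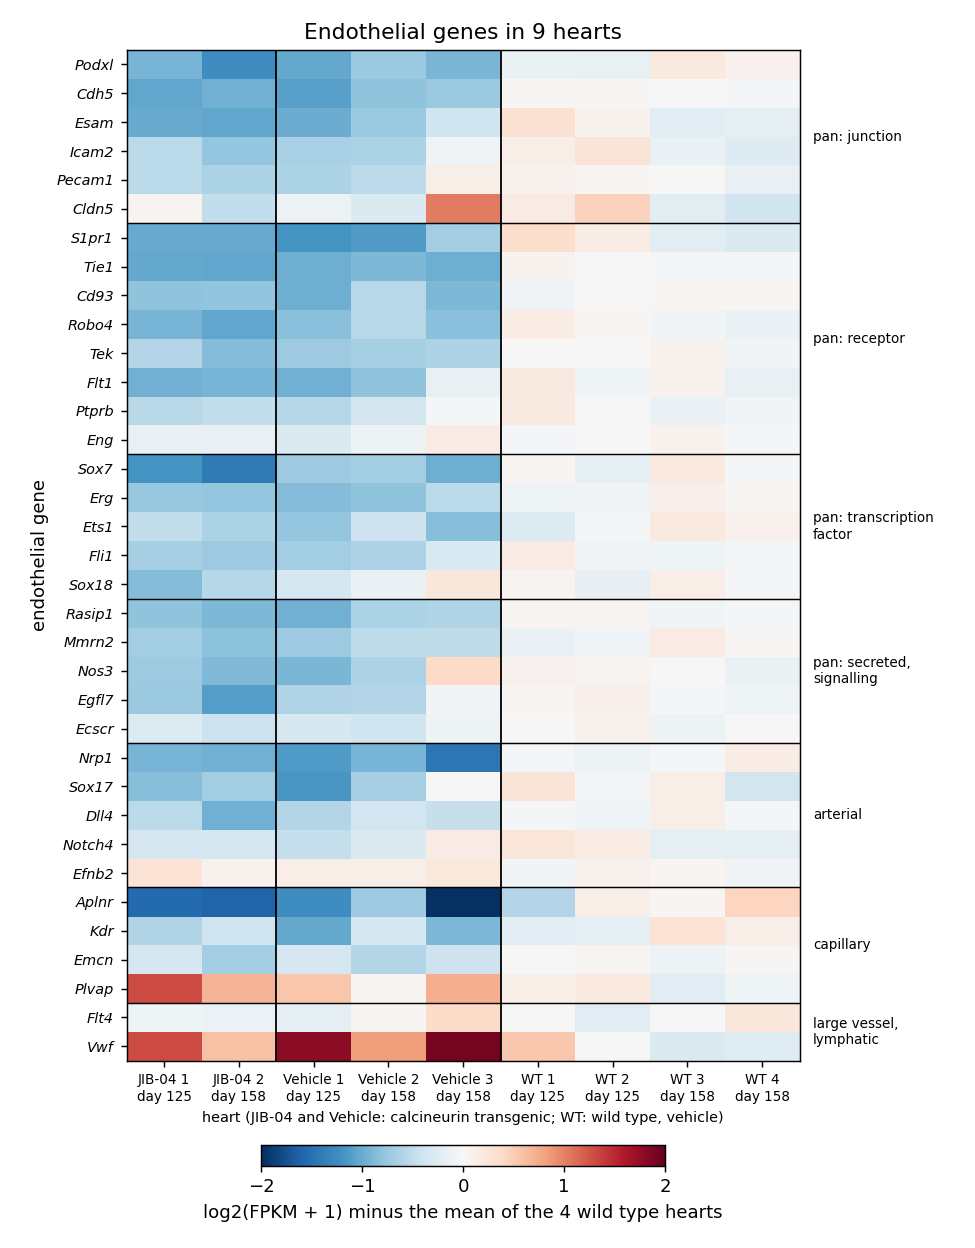
Each row is an endothelial gene and each column a heart, with the colour giving log2(FPKM + 1) minus the mean of the 4 wild type hearts (blue lower, red higher; colours end at -2 and 2). Most rows are blue in the 5 transgenic hearts, and Vwf is red. Plvap is red except in transgenic vehicle heart 2, where it lies near the wild type mean. Transgenic vehicle heart 3 is paler than hearts 1 and 2 in many rows.

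The first comparison asks how the calcineurin transgene changed endothelial genes under vehicle (3 against 4 hearts). Of the 35 genes, 20 fell and 2, Vwf and Plvap, rose, while 13 did not pass the test. Over all tested genes, 15.7% were called lower, 20.3% higher and 36% in either direction. The median difference of the 35 genes was -0.60, against 0.05 over all tested genes. In 20 genes every transgenic heart lay below every wild type heart, and in 2 above, against 17.7% and 23.4% of all tested genes. By class, 15 of 24 pan-endothelial, 2 of 5 arterial and 3 of 4 capillary genes fell. FPKM are relative to the library's total. In whole hearts, fewer endothelial cells, less RNA per endothelial cell and a larger share of RNA from other cells therefore cannot be told apart.

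Without transgenic vehicle heart 3, 27 genes were called lower and 1 higher, with a median of -0.66. In that fit 16.4% of all tested genes were called lower and 21.0% higher, and their median was 0.05. The 7 genes gained were Pecam1, Icam2, Ptprb, Egfl7, Nos3, Ecscr and Sox17, and the gene lost was Plvap. In each gene gained, heart 3 was the highest transgenic vehicle heart. Heart 3 was singled out after its values were seen, and it was the highest of its group in 24 endothelial genes. Leaving it out therefore favoured lower calls, so the calls gained are no separate test of the fall. Without heart 1 instead, 15 genes were called lower and 1 higher, and without heart 2, 19 lower and 2 higher. Of the 22 calls, 9 held under all 20 alternatives (Cdh5, Podxl, Tie1, Tek, Erg, Sox7, Mmrn2, Rasip1 and Nrp1).

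**Figure D2:**
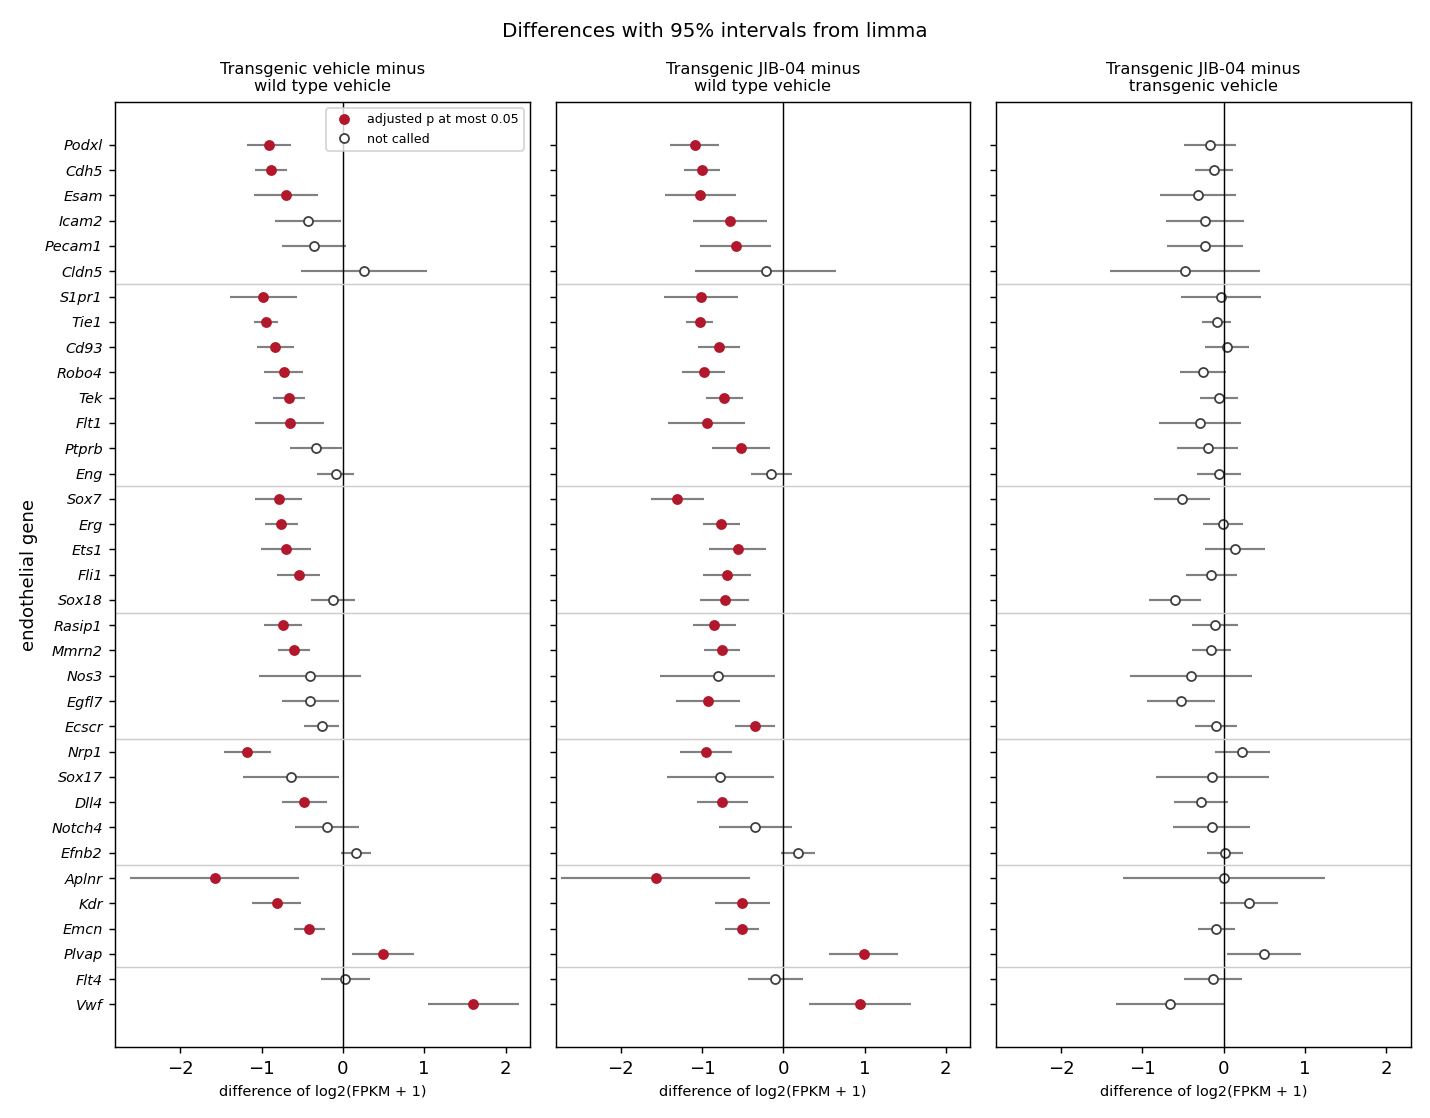
Differences of log2(FPKM + 1) for each endothelial gene with 95% intervals from limma, for transgenic vehicle against wild type (left), JIB-04 against wild type (middle) and JIB-04 against vehicle in transgenic hearts (right). Red points were called (adjusted p at most 0.05): 22 genes on the left, 28 in the middle and 0 on the right. Both comparisons with wild type share the same 4 wild type hearts.

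Among the junction and surface genes, Cdh5, Podxl and Esam fell. Cdh5, the VE-cadherin of endothelial adherens junctions (chromosome 8, positions 104101625 to 104144502 in GRCm38), was at 23.4, 28.5 and 30.0 FPKM in the transgenic vehicle hearts and 51.6, 51.3, 50.3 and 49.1 FPKM in the wild type hearts. The groups were far apart relative to their spread, and the difference was -0.89 ± 0.09 (SE; limma adjusted p = 0.000202). Podxl, a sialomucin of the luminal surface, was at 18.3, 22.6 and 20.01 FPKM in transgenic vehicle hearts, against 35.1, 34.5, 44.1 and 41.0 FPKM in wild type hearts. Its difference was -0.91 ± 0.12 (SE; limma adjusted p = 0.000761). Esam, an adhesion molecule of tight junctions, was at 18.4, 22.0 and 28.3 FPKM in transgenic vehicle hearts and 46.8, 39.5, 32.5 and 33.1 FPKM in wild type hearts. Its groups did not overlap, and it fell by 0.70 (SE 0.17; limma adjusted p = 0.0140), a call lost without transgenic vehicle heart 1 (adjusted p = 0.0751 in limma) and in a fit of the day 158 hearts (adjusted p = 0.184 in limma).

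Pecam1, the platelet endothelial adhesion molecule widely used to stain endothelium, was called without heart 3 and not with it. Its level was 32.3, 35 and 54.6 FPKM in transgenic vehicle hearts and 53.8, 52.2, 51.0 and 45.6 FPKM in wild type hearts. Hearts 1 and 2 lay below all wild type hearts and heart 3 above them. The difference was -0.35 (limma adjusted p = 0.142) with heart 3 and -0.58 (adjusted p = 0.00162 in limma) without it. Cldn5, the main claudin of endothelial tight junctions, was at 11.4, 9.88 and 26.4 FPKM in transgenic vehicle hearts and 13.9, 17.3, 10.5 and 9.08 FPKM in wild type hearts. Its difference of 0.25 was not called and turned to -0.20 without heart 3. Icam2, a leukocyte adhesion ligand, was at 10.5, 10.7 and 16.3 FPKM in transgenic vehicle hearts and 18.8, 20.8, 15.5 and 14.2 FPKM in wild type hearts, overlapping through heart 3 (difference -0.43, limma adjusted p = 0.0932). Without heart 3 its difference was -0.64 (limma adjusted p = 0.00312).

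Of the 8 pan-endothelial receptors, 6 fell and 2 were not called. Tie1, an orphan receptor kinase that acts with Tek (chromosome 4, positions 118471191 to 118490061), had the smallest p of the 35 genes. It was at 12.7, 13.5 and 12.6 FPKM in transgenic vehicle hearts and 27.3, 26.1, 25.2 and 25.1 FPKM in wild type hearts, with little spread in either group. The difference was -0.95 ± 0.07 (SE; limma adjusted p = 4.25e-05). Tek, the angiopoietin receptor, was at 8.70, 9.22 and 9.48 FPKM in transgenic vehicle hearts and 15.0, 15.0, 15.9 and 14.5 FPKM in wild type hearts, and fell by 0.67.

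S1pr1, the receptor by which circulating sphingosine 1-phosphate tightens the endothelial barrier, was at 11.6, 12.1 and 16.8 FPKM in transgenic vehicle hearts and 35.8, 30.9, 23.7 and 22.4 FPKM in wild type hearts. Its fall of 0.98 was the largest among the pan-endothelial genes (SE 0.18; limma adjusted p = 0.00406). Cd93, a C-type lectin-like receptor that binds Mmrn2, was at 7.10, 9.90 and 7.54 FPKM in transgenic vehicle hearts, against 14.2, 15.0, 15.5 and 15.4 FPKM in wild type hearts. Robo4, a roundabout receptor of quiescent vessels, was at 6.72, 8.40 and 6.77 FPKM in transgenic vehicle hearts and 14.4, 13.1, 12.3 and 11.6 FPKM in wild type hearts. Neither gene overlapped between the groups, with differences of -0.83 for Cd93 and -0.73 for Robo4.

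Flt1, a decoy-like receptor for vascular endothelial growth factors whose promoter is shown above, was at 13.4, 15.1 and 24.5 FPKM in transgenic vehicle hearts and 30.6, 25.3, 28.3 and 24.4 FPKM in wild type hearts. Heart 3 reached the lowest wild type heart, and the call (difference -0.65 ± 0.18 (SE), limma adjusted p = 0.0256) was lost under 6 of 20 alternatives. Eng, a co-receptor for BMP and TGF-β ligands whose promoter also holds AGGAAG, was at 42.5, 48.5 and 58.8 FPKM in transgenic vehicle hearts and 51.3, 51.9, 54.5 and 50.6 FPKM in wild type hearts. The groups overlapped, and the difference of -0.09 (95% interval -0.32 to 0.13) was not called. Ptprb, the phosphatase that acts on Tek, differed by -0.33 (limma adjusted p = 0.0972).

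Among the transcription factors, Erg, Fli1, Ets1 and Sox7 fell and Sox18 was not called. Erg, the ETS factor most restricted to endothelium, was at 5.85, 6.14 and 7.65 FPKM in transgenic vehicle hearts and 10.8, 10.9, 12.5 and 11.9 FPKM in wild type hearts. All 3 transgenic hearts lay below the wild type hearts, and the difference was -0.76 ± 0.09 (SE; limma adjusted p = 0.000487). Sox7 was at 4.08, 4.27 and 3.28 FPKM in transgenic vehicle hearts and 7.68, 6.33, 8.67 and 7.17 FPKM in wild type hearts (difference -0.79). Ets1 was at 8.47, 11.2 and 8.0 FPKM in transgenic vehicle hearts, against 12.5, 15.1, 17.6 and 16.2 FPKM in wild type hearts (difference -0.70), a call lost with hearts scaled to equal totals and in the day 158 fit. Ets1 and Fli1 are also used by leukocytes, whose markers are given below. Fli1 was at 3.98, 4.26 and 5.52 FPKM in transgenic vehicle hearts and 8.06, 6.82, 6.66 and 6.91 FPKM in wild type hearts (difference -0.55), a call lost without transgenic vehicle heart 1 and in the day 158 fit. Sox18, at 14.2, 16.7 and 21.7 FPKM in transgenic vehicle hearts and 19.0, 16.2, 20.3 and 18.0 FPKM in wild type hearts, overlapped between them (difference -0.12, limma adjusted p = 0.452). Whether Sox7 and Sox18 differed from each other was not tested.

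Of the secreted and signalling genes, Rasip1 and Mmrn2 fell. Rasip1, a Ras-interacting protein needed for open vessel lumens, was at 8.65, 11.2 and 11.4 FPKM in transgenic vehicle hearts and 18.6, 18.5, 17.1 and 17.4 FPKM in wild type hearts (difference -0.74). Mmrn2, a matrix glycoprotein of the endothelial surface, was at 8.81, 10.4 and 10.5 FPKM in transgenic vehicle hearts and 13.8, 14.7, 17.2 and 15.6 FPKM in wild type hearts (difference -0.60). Neither gene overlapped between the groups.

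Egfl7, Nos3 and Ecscr were not called, and for each heart 3 was the highest transgenic heart. Egfl7, a secreted regulator of vessel tubes, was at 90.6, 91.4 and 133 FPKM in transgenic vehicle hearts and 142, 147, 134 and 129 FPKM in wild type hearts (difference -0.40, limma adjusted p = 0.0711). Nos3, the endothelial nitric oxide synthase, was at 4.30, 5.49 and 12.3 FPKM in transgenic vehicle hearts and 9.64, 9.41, 9.06 and 8.13 FPKM in wild type hearts. Its difference was -0.41 with heart 3 and -0.78 without it (limma adjusted p = 0.282 and 0.00172).

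Of the 5 arterial genes, Nrp1 and Dll4 fell and Sox17, Notch4 and Efnb2 were not called. Nrp1, which also binds semaphorins and is used by cells other than endothelium (chromosome 8, positions 128359073 to 128505462), was at 17.3, 20.2 and 13.9 FPKM in transgenic vehicle hearts and 38.8, 36.7, 38.5 and 43.6 FPKM in wild type hearts. Heart 3 was the lowest of all 9 hearts here, unlike in most endothelial genes, and the difference was -1.17 ± 0.12 (SE; limma adjusted p = 0.000298). Dll4, the Notch ligand of arterial and sprouting endothelium, was at 4.67, 5.54 and 5.16 FPKM in transgenic vehicle hearts and 7.36, 7.03, 8.32 and 7.33 FPKM in wild type hearts. It fell by 0.48 (SE 0.12; limma adjusted p = 0.0168), a call lost under 4 of 20 alternatives.

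Sox17, the SOXF factor of arteries, was at 5.04, 7.47 and 12.5 FPKM in transgenic vehicle hearts and 15.0, 12.3, 13.7 and 9.47 FPKM in wild type hearts. The groups overlapped through heart 3, with a difference of -0.64 with it and -0.91 without it (limma adjusted p = 0.0862 and 0.00925). Efnb2, the ephrin ligand that marks arteries, was at 8.18, 8.03 and 8.69 FPKM in transgenic vehicle hearts and 7.09, 7.91, 7.56 and 6.93 FPKM in wild type hearts. All transgenic hearts lay above all wild type hearts by a small margin, and the difference of 0.16 (95% interval -0.02 to 0.35) was not called. It was called only when hearts were scaled to equal totals (0.36, limma adjusted p = 0.0303). Notch4, an endothelial Notch receptor, was at 6.60, 7.64 and 10.8 FPKM in transgenic vehicle hearts and 11.5, 10.7, 8.29 and 8.29 FPKM in wild type hearts, which overlapped (difference -0.20, 95% interval -0.60 to 0.20).

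Of the 4 capillary genes, Aplnr, Kdr and Emcn fell and Plvap rose. Kdr, the main signalling receptor for vascular endothelial growth factor A (chromosome 5, positions 75932827 to 75978458), was at 13.9, 22.8 and 15.2 FPKM in transgenic vehicle hearts and 25.0, 25.8, 35.6 and 31.9 FPKM in wild type hearts. The groups did not overlap, and the difference was -0.82 ± 0.13 (SE; limma adjusted p = 0.00217). Emcn, a sialomucin of capillaries and veins, was at 14.0, 11.6 and 13.1 FPKM in transgenic vehicle hearts and 18.0, 18.6, 16.7 and 18.2 FPKM in wild type hearts (difference -0.42). Its call was lost with hearts scaled to equal totals (-0.21, limma adjusted p = 0.163) and in the day 158 fit (limma adjusted p = 0.0918).

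Aplnr, the apelin receptor (chromosome 2, positions 85136225 to 85139923), had the largest fall of the 35 genes with all hearts included, and the widest error. It was at 3.57, 5.50 and 0.631 FPKM in transgenic vehicle hearts and 6.17, 10.7, 10.1 and 13.6 FPKM in wild type hearts. Heart 3 was the lowest, but hearts 1 and 2 also lay below every wild type heart. The difference was -1.58 ± 0.45 (SE; limma adjusted p = 0.0274), and -0.99 without heart 3 (adjusted p = 0.0111 in limma), where S1pr1 (-1.16) and Nrp1 (-1.03) fell more. The call was lost under 6 of 20 alternatives.

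Plvap, the protein of the diaphragms that close fenestrae and caveolae (chromosome 8, positions 71497754 to 71511769), is low in capillaries of healthy heart muscle. It was at 6.16, 4.01 and 7.06 FPKM in transgenic vehicle hearts and 4.26, 4.58, 3.16 and 3.61 FPKM in wild type hearts. Transgenic hearts 1 and 3 were above all wild type hearts and heart 2 among them. The difference of 0.50 ± 0.17 (SE) was just called (limma adjusted p = 0.0470), and the call was lost under 15 of 20 alternatives. Without heart 3 it was 0.30 (adjusted p = 0.0545 in limma).

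Vwf, the clotting glycoprotein stored by endothelium of larger vessels and made also by megakaryocytes (chromosome 6, positions 125546774 to 125686679), had the largest rise of the 35 genes. It was at 79.1, 40.7 and 87.1 FPKM in transgenic vehicle hearts and 32.8, 22.2, 18.0 and 18.7 FPKM in wild type hearts. All transgenic hearts lay above all wild type hearts, and the difference was 1.60 ± 0.24 (SE; limma adjusted p = 0.00175). It was 1.31 without heart 3 (limma adjusted p = 0.000676) and was lost only in a fit of the day 158 hearts (limma adjusted p = 0.0572). Of 6 platelet and megakaryocyte markers 3 were tested and 1, Gp1ba, was called higher, against 20.3% of all tested genes. That call was lost under 9 of 20 alternatives. Their summed level was 20.4 to 25.4 FPKM in transgenic vehicle and 19.7 to 24.3 FPKM in wild type hearts, and their part in the Vwf result was not tested. Flt4, the receptor of lymphatic growth factors, was at 2.99, 3.67 and 4.91 FPKM in transgenic vehicle hearts and 3.57, 2.90, 3.58 and 4.38 FPKM in wild type hearts, and its groups overlapped.

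**Figure D3:**
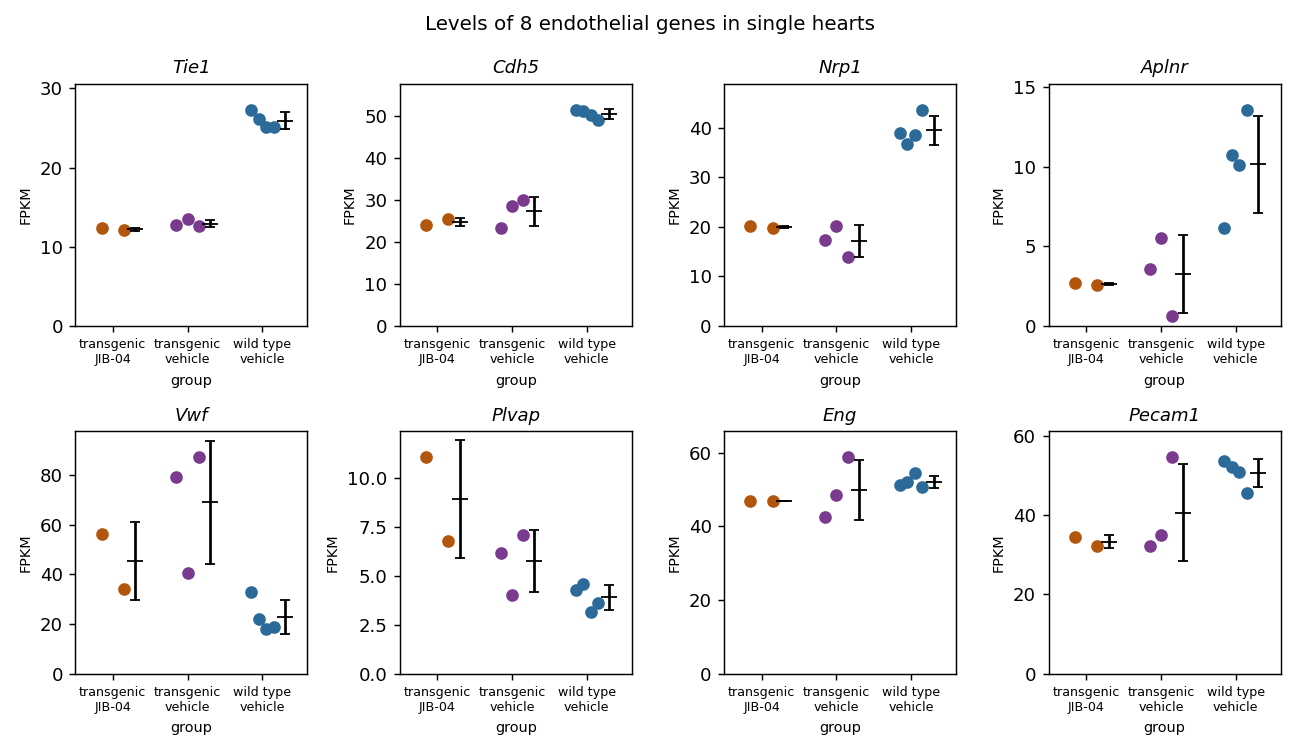
FPKM of 8 endothelial genes in single hearts (points), with the mean and SD of each group (bars at the right of the points; n = 2, 3 and 4). Tie1, Cdh5 and Nrp1 separate the transgenic groups from wild type with little spread, Vwf is higher in transgenic hearts, and in Pecam1 1 transgenic vehicle heart lies above the wild type hearts.

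The genes differed in the size and direction of their differences, also within a heart. Values were also set against the mean log2 level of the 24 pan-endothelial genes in the same heart. On this scale Vwf stood 2.08 higher in transgenic vehicle than in wild type hearts. Next were Plvap (1.0), Cldn5 (0.77), Efnb2 (0.71), Flt4 (0.63), Eng (0.49) and Sox18 (0.48). The lowest differences were those of Aplnr (-1.01), Nrp1 (-0.61) and S1pr1 (-0.44). Without heart 3, S1pr1 differed by -0.49, Nrp1 by -0.36 and Aplnr by -0.32, while Cldn5 stood 0.47 higher. Vwf, Plvap, Efnb2, Flt4, Eng and Sox18 then stood 1.98, 0.97, 0.79, 0.59, 0.48 and 0.43 higher. These are descriptions within hearts, and the pan-endothelial mean holds Cldn5, Eng, Sox18 and S1pr1 themselves.

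**Figure D4:**
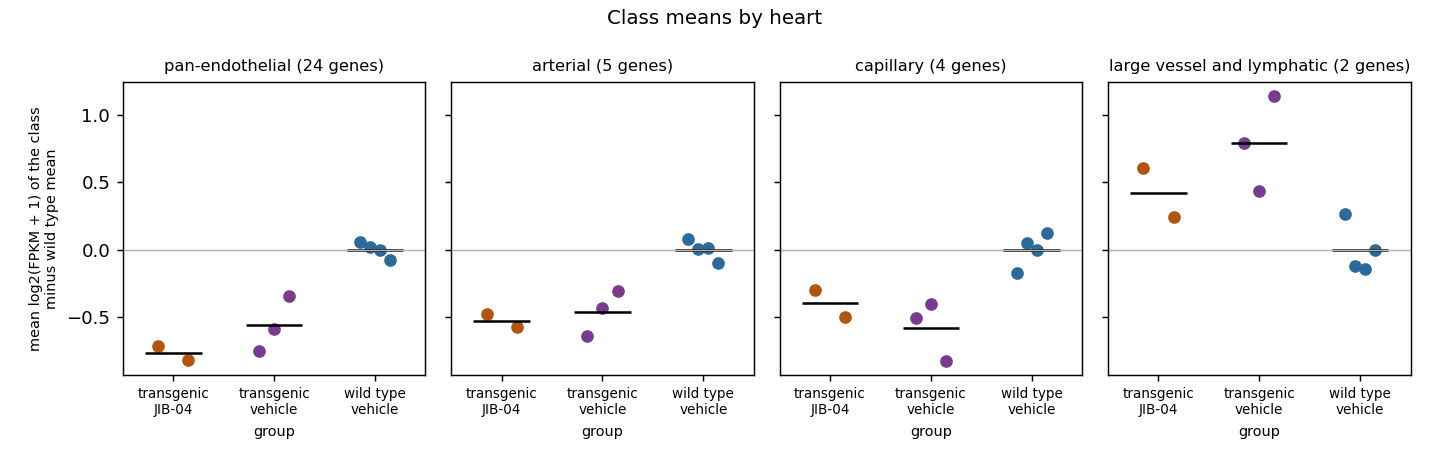
Mean log2(FPKM + 1) of each class in each heart minus the wild type mean; points are hearts and lines group means. Pan-endothelial, arterial and capillary means lie below every wild type heart in all 5 transgenic hearts (for pan-endothelial genes between -0.82 and -0.34), while the mean of Vwf and Flt4 is higher, with JIB-04 heart 2 overlapping the wild type hearts.

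For day 158 against day 125 over all groups, 0 of 35 were called by limma (0.378% of all tested genes, 0.156% higher and 0.222% lower) and 4 had an unadjusted p under 0.05. At day 125 (1 transgenic vehicle heart against 2 wild type, with the spread taken from all hearts) 12 genes fell and 0 rose, with a median of -0.72, against 3.98% of tested genes called lower and 4.35% higher. At day 158 (2 against 2 hearts) 15 fell and 1 rose, with a median of -0.43, against 7.3% called lower and 9.39% higher. No endothelial gene was called for a difference of the transgene effect between the days (0 of 35 by limma, 0.00741% of all tested genes, and 6 at an unadjusted p under 0.05). Those 6 were Esam, S1pr1, Notch4, Ptprb, Rasip1 and Cdh5, with differences that were 0.36 to 0.80 higher at day 158, where heart 3 is 1 of the 2 transgenic vehicle hearts.

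The second comparison asks whether JIB-04 changed these genes in transgenic hearts (2 against 3 hearts). By limma 0 of 35 were called, against 1 of the 13487 tested genes (0.00741%), and 4 endothelial genes had an unadjusted p under 0.05. The median difference was -0.14, against -0.01 over all tested genes, and 28 of the 35 differences were below 0. Without transgenic vehicle heart 3 the median was -0.03, against -0.015 over all tested genes, and 24 differences were below 0. In 6 genes both JIB-04 hearts lay below all 3 vehicle hearts, against 6.88% of all tested genes, and in 0 genes above, against 5.55%. The 95% intervals of the 35 genes ran from -1.39 to 1.24 at their widest, those of Cldn5 and Aplnr.

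The 3 genes with the smallest p were Sox18, Sox7 and Egfl7. Sox18 was at 9.53 and 12.0 FPKM in JIB-04 hearts and 14.2, 16.7 and 21.7 FPKM in transgenic vehicle hearts, a difference of -0.60 (95% interval -0.92 to -0.28; limma adjusted p = 0.987). Sox7 was at 2.67 and 2.16 FPKM in JIB-04 hearts, against 4.08, 4.27 and 3.28 FPKM in transgenic vehicle hearts (difference -0.51, 95% interval -0.86 to -0.16). Egfl7 was at 81.7 and 63.5 FPKM in JIB-04 hearts and 90.6, 91.4 and 133 FPKM in transgenic vehicle hearts (difference -0.52, 95% interval -0.94 to -0.11). In these 3 genes the groups did not overlap, and none passed the adjustment over all genes. Without transgenic vehicle heart 3 the differences were -0.49 for Sox18, -0.60 for Sox7 and -0.33 for Egfl7, and none was called. Plvap, the fourth gene with an unadjusted p under 0.05, was at 11 and 6.79 FPKM in JIB-04 hearts and 6.16, 4.01 and 7.06 FPKM in transgenic vehicle hearts, which overlapped (difference 0.49).

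Genes with large transgene effects were not called for JIB-04. Vwf was at 56.4 and 34.1 FPKM in JIB-04 hearts, against 79.1, 40.7 and 87.1 FPKM in transgenic vehicle hearts (difference -0.66, 95% interval -1.32 to 0.01). Kdr was at 18.9 and 21.8 FPKM in JIB-04 hearts and 13.9, 22.8 and 15.2 FPKM in transgenic vehicle hearts (difference 0.31, 95% interval -0.04 to 0.67). Nrp1 was at 20.1 and 19.8 FPKM in JIB-04 hearts and 17.3, 20.2 and 13.9 FPKM in transgenic vehicle hearts (difference 0.23, 95% interval -0.11 to 0.57). Without transgenic vehicle heart 3 the differences were -0.36 for Vwf, 0.18 for Kdr and 0.09 for Nrp1. For Aplnr the difference was 0.006 with heart 3 and -0.58 without it. Tie1, at 12.3 and 12.1 FPKM in JIB-04 hearts and 12.7, 13.5 and 12.6 FPKM in transgenic vehicle hearts, had the narrowest interval of the 35 genes (-0.26 to 0.10). Erg had an interval of -0.25 to 0.24.

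By day, the median JIB-04 difference of the 35 genes was 0.09 at day 125 (1 against 1 heart) and -0.28 at day 158 (1 against 2, with heart 3 among the vehicle hearts). By limma 0 of 35 genes were called on either day, against 0.0148% and 0.00741% of all tested genes. Unadjusted p-values under 0.05 were found for 0 genes at day 125 and 7 at day 158.

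The third comparison sets the JIB-04 transgenic hearts against wild type (2 against 4 hearts) and shares the wild type hearts with the first. Of the 35 genes, 26 fell and 2 rose, against 14.8% lower, 17.4% higher and 32.3% in either direction over all tested genes. The median was -0.75, against 0.04 over all genes. Of the 28 calls, 7 held under all 20 alternatives. Those of Pecam1, Icam2, Ptprb, Ecscr, Kdr, Aplnr and Vwf were each lost under 9 to 11 of them. In 30 genes both JIB-04 hearts lay below all wild type hearts and in 2 above, against 21.7% and 28.4% of all tested genes. All 5 pan-endothelial transcription factors, 7 of 8 receptors, 5 of 6 junction genes and 4 of 5 secreted or signalling genes fell, as did 2 of 5 arterial and 3 of 4 capillary genes. The count was 16 without JIB-04 heart 1 and 13 without JIB-04 heart 2, which leave a single JIB-04 heart assumed to vary like the others. By day, with a single JIB-04 heart on each and the spread taken from all hearts, 10 genes fell and 0 rose at day 125, against 3.48% of tested genes lower and 4.55% higher, and 15 fell and 0 rose at day 158, against 6% lower and 5.04% higher.

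In the JIB-04 hearts Cdh5 was at 24.1 and 25.4 FPKM, Podxl at 19.6 and 15.7 FPKM and Esam at 18.3 and 17.8 FPKM, each below every wild type heart given above (differences from wild type -1.0, -1.09 and -1.02). Among the receptors, Robo4 was at 6.28 and 5.73 FPKM, S1pr1 at 13.3 and 13.2 FPKM and Flt1 at 13.5 and 13.7 FPKM in JIB-04 hearts, with differences from wild type of -0.98, -1.01 and -0.94. Eng was at 46.9 and 46.8 FPKM in JIB-04 hearts, also below all wild type hearts, but its difference of -0.15 was not called (limma adjusted p = 0.337). Erg was at 6.41 and 6.34 FPKM, Fli1 at 4.09 and 3.91 FPKM and Ets1 at 10.5 and 9.48 FPKM in JIB-04 hearts (differences from wild type -0.76, -0.69 and -0.56). Dll4 was at 4.86 and 3.36 FPKM, Emcn at 13.9 and 10.8 FPKM and Aplnr at 2.7 and 2.58 FPKM in JIB-04 hearts (differences from wild type -0.75, -0.51 and -1.57). All of these except Eng were called lower than wild type, though the call was lost under 11 of 20 alternatives for Aplnr, 8 for Ets1 and up to 3 for the others.

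Sox7 had the largest fall of the pan-endothelial genes in the JIB-04 hearts, at 2.67 and 2.16 FPKM against 7.68, 6.33, 8.67 and 7.17 FPKM in wild type hearts (difference -1.31 ± 0.14 (SE), limma adjusted p = 0.000448). Sox18, at 9.53 and 12.0 FPKM in JIB-04 hearts and 16.2 to 20.3 FPKM in wild type hearts, fell by 0.72 (limma adjusted p = 0.00448). Pecam1 was at 34.5 and 32.2 FPKM in JIB-04 hearts and 45.6 to 53.8 FPKM in wild type hearts, and fell by 0.59 (limma adjusted p = 0.0481, lost under 10 of 20 alternatives). Plvap was at 11 and 6.79 FPKM in JIB-04 hearts, above all wild type hearts at 3.16 to 4.58 FPKM, and rose by 0.99 ± 0.19 (SE; limma adjusted p = 0.00521). Vwf, at 56.4 and 34.1 FPKM in JIB-04 hearts and 18.0 to 32.8 FPKM in wild type hearts, rose by 0.95 (limma adjusted p = 0.0311, lost under 9 of 20 alternatives). Eng, Cldn5, Nos3, Sox17, Notch4, Efnb2 and Flt4 were not called.

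Other endothelial genes, from lists that are not members, were compared in the same fit for transgenic vehicle against wild type. Over all tested genes 15.7% were called lower and 20.3% higher. Of 27 tested further pan-endothelial genes 16 fell and 0 rose (median -0.59). Ushbp1, Cyyr1 and Shank3 had the smallest p, with differences of -1.10, -0.95 and -0.86. Of 13 further capillary genes 9 fell and 0 rose (median -0.87), led by Aqp1, a water channel (-1.52), Tcf15, a transcription factor of fatty acid-using capillaries (-1.07), and Fabp5, a fatty acid binding protein (-0.88). Tcf15 was at 7.84 and 5.85 FPKM in JIB-04 hearts, 14.2, 12.7 and 12.4 FPKM in transgenic vehicle hearts and 28.4, 30.0, 30.4 and 27.6 FPKM in wild type hearts. Its JIB-04 difference of -0.88 did not pass the adjustment (limma adjusted p = 0.159).

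Genes listed as markers of other vessel beds were split. Over all tested genes 20.3% were called higher and 15.7% lower, and the arterial, venous, lymphatic and angiogenic counts below lie near those shares. Of 18 further arterial genes 3 rose and 4 fell, with Fbln5, an elastic fibre protein, at 0.88, the netrin receptor Unc5b at 0.88 and the Notch target Hey2 at -0.70. Of 7 tested venous genes 2 rose (Il6st at 0.79 and Bmp4 at 0.69) and 1 fell (Ephb4, the receptor of Efnb2, at -0.40, a call lost under 12 of 20 alternatives), and of 7 lymphatic genes 2 rose (Pdpn at 0.93 and Mmrn1 at 0.98) and 1 fell (Thy1 at -0.52). The calls of Thy1 and Mmrn1 were lost under 5 alternatives each. Whole hearts do not show which cells made the transcripts of these lists, and the part of fibroblasts and other cells was not tested. Of 6 tested endocardial genes 4 rose and 1 fell, with Cytl1 at 1.84 and Tmem108 at 1.48 among those that rose. The gene that fell is not named here. Of 14 genes of angiogenic activation 3 rose and 4 fell, with Itga5, an integrin that binds fibronectin, at 1.17, the basement membrane protein Nid2 at 0.88 and Apln, the ligand of Aplnr, at -1.39.

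The ligands and partners of the receptors described here numbered 14 tested, of which 7 were lower and 2 higher, against 15.7% lower and 20.3% higher of all tested genes. Apln, Angpt2, Pgf, Jag1 and Ephb4 also stand in the angiogenic, arterial or venous lists above, so these counts are not separate. Angpt1, the agonist of Tek, was at 2.26, 1.68 and 1.99 FPKM in transgenic vehicle hearts and 12.1, 11.5, 8.42 and 11.2 FPKM in wild type hearts, with no overlap (difference -1.95 ± 0.11 (SE), limma adjusted p = 1.28e-05). Vegfb, a ligand of Flt1 made by cardiomyocytes, was at 111, 120 and 107 FPKM in transgenic vehicle hearts and 205, 232, 180 and 195 FPKM in wild type hearts (difference -0.81). Apln was at 0.994, 2.17 and 0.473 FPKM in transgenic vehicle hearts and 3.79, 5.39, 3.44 and 5.63 FPKM in wild type hearts, and its receptor Aplnr fell too. Sema3a, a semaphorin that binds Nrp1, rose by 1.07. No gene of these lists was called for JIB-04 against vehicle by limma (0.00741% of all tested genes).

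Some markers of other cells of the heart also differed between transgenic vehicle and wild type hearts. The counts below stand against 20.3% of all tested genes called higher, 15.7% lower and 36% in either direction. The cardiomyocyte count lies near the last of these. Of 10 fibroblast markers 5 rose and 0 fell, among them Tcf21 (1.02) and Postn (1.81), with a summed level of 1333 to 1408 FPKM in JIB-04 hearts, 1240 to 1472 FPKM in transgenic vehicle hearts and 684 to 873 FPKM in wild type hearts. Of 12 mural cell markers 4 rose and 5 fell, so the list was split. The pericyte potassium channel genes Kcnj8 (-1.01) and Abcc9 (-0.81) were among those that fell, and the 4 that rose are not named here. The list sums ran from 803 to 842 FPKM in wild type hearts. They were 1335 to 1411 FPKM in JIB-04 and 1240 to 1439 FPKM in transgenic vehicle hearts. A single marker of the list reached 925 FPKM at its highest, so the sums can follow that marker alone. Of 10 cardiomyocyte markers 1 rose and 3 fell, with sums of 11233 to 12609 FPKM in JIB-04, 11761 to 13220 FPKM in transgenic vehicle and 14136 to 16434 FPKM in wild type hearts. Of 12 leukocyte markers 9 were tested and 0 were called by limma (1 at an unadjusted p under 0.05), with sums of 218 to 250 FPKM in JIB-04, 215 to 275 FPKM in transgenic vehicle and 191 to 263 FPKM in wild type hearts. None of these markers was at 0 in every heart, and the part of these cells in the endothelial results was not tested.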

How the data were processed

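Groups, replicate numbers and days came from the labels of the 9 hearts. By the series text, injections went on to day 158, yet the labels of 4 hearts give day 125. The deposited files hold log2 FPKM per gene, as stated per the file headers, without the constant added; 1 was taken, because the lowest deposited value is exactly 0. Per the labels' protocols, Trizol RNA went into a non-directional library kit. The submitters' processing notes name GRCm38 and, without their roles, Cufflinks 2.2.1, GATK 4.1.2, Picard and STAR 2.7.1a. Read totals are unknown, so no counting intervals are given. Mitochondrial genes made up 10.0% to 30.9% of summed FPKM.

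Genes with at least 1 FPKM in 2 hearts (13487 of 43154) entered limma 3.58.1 (R 4.3.3; lmFit, then eBayes with trend) as log2(FPKM + 1). The model had group and day terms over all 9 hearts, with 5 residual and 3.07 prior degrees of freedom. P-values are two-sided and Benjamini-Hochberg adjusted over all tested genes. Day-specific values came from a model of group by day. The scripts were tested on simulated data. Members and lists were chosen with earlier results of these data known. Given heart by heart are members called between transgenic vehicle and wild type, the 4 largest differences per class or role, and the 3 smallest p for JIB-04 against vehicle; the other lists name up to 3 genes by p. Pecam1, Cldn5, Eng and Efnb2 were added after their values were seen. Alternatives were other pseudocounts, filters and scalings, no day term, the replicate number as a block, day 158 alone, only the compared groups, and leaving out each heart. Loci count from 1; 30 of 35 starts equalled GENCODE M21.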

Additional observations from a re-analysis of the deposited data

How the results depend on the processing

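Of the 22 calls for transgenic vehicle against wild type, 9 held under all 20 alternatives, 5 were lost only in the day 158 fit (Robo4, S1pr1, Cd93, Kdr and Vwf) and 8 elsewhere; for JIB-04 against wild type these numbers were 7, 4 and 17 of 28. The count was 9 in the day 158 fit for transgenic vehicle and 8 for JIB-04 against wild type, where fewer hearts were fitted. Leaving out each heart in turn gave 16 (without transgenic vehicle heart 1) to 28 (without heart 3) calls for transgenic vehicle and 13 to 30 for JIB-04 against wild type. JIB-04 against vehicle and day 158 against day 125 stayed at 0 by limma under every alternative run. Scaling to equal totals moved the median of all genes by 0.19 and put 81.7% of calls higher, against 56.3% as reported, 48.4% with median of ratios and 46.8% with quantile normalization; the median of the 35 genes minus that of all genes was -0.65 as reported and -0.63, -0.65 and -0.65 under these scalings. Deviations of same-numbered hearts from their group means had correlations of -0.19 to 0.43. The highest was that of JIB-04 heart 1 with transgenic vehicle heart 1, which also share a day. Deviations of the JIB-04 hearts mirror each other exactly, and all hearts numbered 1 are of day 125. The correlations therefore cannot decide whether the numbers pair hearts. With the replicate number as a block, 1 gene was higher and 20 lower in either comparison with wild type, and 0 were called for JIB-04 against vehicle. Direction turned only in genes that were not called. For transgenic vehicle against wild type, scaling to equal totals gave 0.129 for Eng, 0.0906 for Sox18 and 0.0023 for Notch4; the day 158 fit gave 0.0225 for Eng, 0.121 for Notch4 and -0.01 for the platelet gene Pf4; and Flt4 was -0.0118 with median of ratios and -0.0557 with quantile normalization. Leaving out each heart in turn gave -0.204 to 0.666 for Cldn5, -0.194 to 0.0273 for Eng, -0.386 to 0.0608 for Notch4, -0.0848 to 0.125 for Flt4 and -0.0297 to 0.119 for Pf4. For JIB-04 against wild type, equal totals gave 0.0122 for Eng and 0.0295 for Flt4, the block gave 0.0749 for Flt4, and leaving out each heart gave -0.261 to 0.0641 for Flt4. The cause was not tested. Read totals are unknown, so the counting error of low genes such as Aplnr and Plvap is not given.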
